A study of Mus musculus with 16 samples.

Results

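*Prg4*, *Gdf5*, *Angptl7*, *Erg* and *Thbs4* are genes of the joint surface and of the cells that build it, and they were followed across all 16 mRNA libraries of the study. They were matched by their mouse gene symbols, and all 5 of them were found among the 55414 gene identifiers that were counted. The 5 genes were chosen with their expression in these libraries already known, so that their levels and differences are given as a description. Errors are printed for them, but no p values. Where they are said to pass a threshold or to keep a call, that too is a description.

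The synovial joint arises from a band of flattened cells, the interzone, that interrupts the cartilage template of the limb. GDF5 marks these cells, and their descendants form the articular cartilage, the ligaments and the synovial lining. The most superficial chondrocytes of the joint secrete lubricin, the product of *Prg4*, whereas deeper chondrocytes secrete type II collagen and aggrecan and, in the growth plate, become hypertrophic.

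The libraries were made from chondrocyte-enriched cultures. Epiphyseal cells of newborn C57BL/6 mice, male and female pooled, were grown in medium with 10% fetal bovine serum. Notch2 mutant cells came from heterozygous *Notch2*tm1.1Ecan mice, in which a stop codon removes the PEST domain and stabilizes NOTCH2, and wild type cells came from control littermates. The allele is present in every tissue of the mutant mice, so that any cell type in the cultures carries it. Cells of both genotypes were exposed for 6 h either to vehicle, which was PBS, or to tumor necrosis factor α (TNFα) at 50 ng/ml, and each of the 4 groups holds 4 libraries annotated as biological replicates. The sample labels mention serum-free medium for the TNFα groups alone, whereas the published legend mentions it for both treatments, and which of these holds is not known. If serum was left out with TNFα alone, its loss cannot be told apart from TNFα in the comparisons between treatments. The comparisons between genotypes under one treatment do not carry a difference in serum.

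The libraries held 3439726 to 44237300 counts on genes with a median of 17062419, and the smallest was Notch2 mutant TNFα replicate 4. *Prg4* had at least 1409 counts and *Thbs4* at least 1039 counts in every library, whereas *Angptl7*, *Gdf5* and *Erg* fell to 42, 52 and 40 counts in that smallest library. Levels are CPM, the counts scaled to the TMM-normalized library size, and p values rest on the spread between these libraries only. Cartilage markers were abundant, with *Col2a1*, the gene for type II collagen, at 37604 ± 1614 CPM (SD, n = 4) in wild type vehicle cells. *Notch2* ranged from 104 to 151 CPM in wild type and from 136 to 164 CPM in Notch2 mutant vehicle libraries. With TNFα it ranged from 129 to 188 CPM in wild type and from 210 to 241 CPM in Notch2 mutant libraries. These counts sum the mutant and the wild type transcript and do not check the genotype labels. Wild type vehicle replicate 4 stood apart from the other vehicle libraries, with *Icam1*, an adhesion gene that TNFα induces, at 439 CPM against 34.4 to 40.4 CPM in the other 3 of its group. On the first principal component wild type vehicle replicate 4 lay at 14.8, against 56.4 to 58.8 in the other vehicle libraries. Wild type TNFα replicate 4 lay at -40.9 on it, against -56.3 to -52.5 in the other 7 TNFα libraries. Notch2 mutant TNFα replicate 4, the smallest library, lay at -33.4 on the second component, against -12.2 to -11.3 in the rest of its group. The differences of the 5 genes are also given without replicate 4 of the wild type groups.

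The sequences upstream of *Angptl7* and *Thbs4* are shown because these genes moved in opposite directions with genotype. Each line gives the 250 bases before the annotated start from RefSeq (GRCm38.p6), 5′ to 3′ on the minus strand, on which both genes lie, at chr4:148500463-148500712 for *Angptl7* and chr13:92794819-92795068 for *Thbs4*. Capitals mark a match to the binding sequence of RBPJ, the DNA-binding partner of the NOTCH2 intracellular domain.
Angptl7 upstream: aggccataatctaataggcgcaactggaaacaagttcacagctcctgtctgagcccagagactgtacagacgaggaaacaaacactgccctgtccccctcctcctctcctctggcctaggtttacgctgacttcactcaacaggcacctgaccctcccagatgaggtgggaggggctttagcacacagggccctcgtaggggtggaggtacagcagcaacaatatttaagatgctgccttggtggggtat
Thbs4 upstream: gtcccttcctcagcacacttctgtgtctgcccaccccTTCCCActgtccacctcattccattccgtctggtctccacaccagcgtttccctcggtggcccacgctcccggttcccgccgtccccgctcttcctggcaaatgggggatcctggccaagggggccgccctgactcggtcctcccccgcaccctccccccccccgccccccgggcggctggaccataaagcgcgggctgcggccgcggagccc
The letters TGGGAA, read on either strand, occurred once before *Thbs4*, beginning 213 bases before the start, and had no match before *Angptl7*. *Erg* has 3 annotated starts in this table, and TGGGAA lay within 250 bases of 1 of them, 16 bases before it. Of the 32851 windows of 250 bases in the table, 21.6% held this sequence. The AP-1 sequence TGANTCA, which 6.75% of all windows held, and the NF-κB sequence, which 3.90% held, had no match in these windows of *Angptl7*, *Thbs4* and *Erg*. The TATA sequence TATAAA, present in 12.4% of all windows, matched 1 of the 3 *Erg* windows, 46 bases before its start, and overlapped no other match. The GC content was 70.8% before *Thbs4* and 54.4% before *Angptl7*, against a median of 52.4% over all windows. Such matches describe the letters only. *Prg4* and *Gdf5* are described by their counts.

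*Gdf5* (ENSMUSG00000038259, GRCm39 chromosome 2, 155782943 to 155787287, minus strand) encodes growth differentiation factor 5, the BMP family ligand that marks the joint interzone. In wild type vehicle libraries it was expressed at 17.6, 18.8, 18.6 and 22.7 CPM, and in Notch2 mutant vehicle libraries at 8.54, 9.85, 9.23 and 10.4 CPM. The highest mutant value was less than the lowest wild type value, and the log2 difference was -1.02 (SE 0.10, 95% confidence interval -1.22 to -0.81), a 2.02-fold lower level. Without wild type vehicle replicate 4, which held the highest value, it was -0.93. With TNFα the wild type libraries held 31.3, 31.1, 32.2 and 34.0 CPM and the Notch2 mutant libraries 14.4, 13.2, 16.2 and 14.3 CPM. Both genotypes had more *Gdf5* with TNFα than with vehicle, with a log2 difference of 0.73 (95% interval 0.56 to 0.90) in wild type and 0.60 (0.38 to 0.82) in Notch2 mutant cells. Without replicate 4 of both wild type groups the wild type value was 0.79. The mutant cells with TNFα nevertheless remained under every wild type vehicle library. The genotype difference with TNFα was -1.13 on the log2 scale (SE 0.087), and -1.12 without wild type TNFα replicate 4.

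*Prg4* (ENSMUSG00000006014, chromosome 1, 150325163 to 150342009, minus strand) encodes lubricin, the mucin-like glycoprotein that lubricates the cartilage surface. Wild type vehicle libraries had 397, 343, 350 and 464 CPM and Notch2 mutant vehicle libraries 203, 205, 183 and 215 CPM. The groups did not overlap, and the log2 difference was -0.94 (SE 0.096, 95% interval -1.15 to -0.72). The highest wild type value came from replicate 4, the library that stood apart, and without it the difference was -0.85. With TNFα the values were 654, 566, 567 and 528 CPM in wild type and 374, 368, 423 and 389 CPM in Notch2 mutant cells, a log2 difference of -0.56 (95% interval -0.70 to -0.42), or -0.62 without wild type TNFα replicate 4. In both genotypes TNFα libraries lay above vehicle libraries, by 0.58 on the log2 scale (SE 0.12) in wild type and 0.95 (SE 0.063) in Notch2 mutant cells, and the wild type value was 0.72 without replicate 4 of both groups. Notch2 mutant cells with TNFα averaged 389 ± 24.3 CPM (SD, n = 4) and wild type cells with vehicle 389 ± 55.7 CPM (SD, n = 4). This match of means includes wild type vehicle replicate 4 at 464 CPM. The other wild type vehicle libraries held 343 to 397 CPM, and mutant libraries with TNFα overlapped with them at 368 to 423 CPM.

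*Angptl7* (ENSMUSG00000028989, chromosome 4, 148579639 to 148584923, minus strand) encodes a secreted angiopoietin-like protein. It differed more between genotypes than the other 4 genes. Wild type vehicle libraries held 50.6, 45.6, 58.9 and 53.4 CPM and Notch2 mutant vehicle libraries 16.9, 16.5, 14.0 and 14.5 CPM, a 3.37-fold lower level (log2 difference -1.75, SE 0.085). With TNFα the wild type libraries had 43.3, 34.6, 41.0 and 39.6 CPM and the Notch2 mutant libraries 10.5, 9.65, 9.42 and 11.6 CPM, a 3.93-fold lower level (log2 difference -1.97, SE 0.096). Every Notch2 mutant library lay under every wild type library, whichever the treatment. Unlike *Gdf5* and *Prg4*, *Angptl7* was lower with TNFα than with vehicle, by -0.39 (95% interval -0.56 to -0.23) in wild type and -0.62 (-0.84 to -0.40) in Notch2 mutant cells on the log2 scale. Without replicate 4 of the wild type groups its differences were -1.75 and -1.99 between genotypes and -0.39 with TNFα in wild type cells.

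*Erg* (ENSMUSG00000040732, chromosome 16, 95160028 to 95387452, minus strand) encodes an ETS transcription factor found in prospective articular chondrocytes and also in endothelial cells. It had 21.8, 23.7, 24.1 and 24.5 CPM in wild type vehicle libraries and 19.5, 14.9, 18.9 and 18.2 CPM in Notch2 mutant vehicle libraries, a log2 difference of -0.39 (SE 0.088). With TNFα there were 16.6, 14.2, 15.0 and 17.4 CPM in wild type and 11.4, 12.6, 10.9 and 11.0 CPM in Notch2 mutant cells, a log2 difference of -0.44 (SE 0.11). The genotypes did not overlap under either treatment, although the gap was the smallest among the 4 genes with less expression in mutant cells. *Erg* was lower with TNFα by -0.57 (95% interval -0.75 to -0.39) in wild type and -0.62 (-0.84 to -0.41) in Notch2 mutant cells on the log2 scale. Without replicate 4 of the wild type groups its genotype differences were -0.38 and -0.40, and the wild type difference with TNFα was -0.60.

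*Thbs4* (ENSMUSG00000021702, chromosome 13, 92888095 to 92931501, minus strand) encodes thrombospondin 4, a pentameric matrix glycoprotein of tendon, muscle and cartilage. It alone of the 5 genes had more expression in Notch2 mutant than in wild type cells. Wild type vehicle libraries held 157, 152, 154 and 160 CPM and Notch2 mutant vehicle libraries 199, 196, 183 and 177 CPM, a log2 difference of 0.28 (SE 0.052, 95% interval 0.17 to 0.39). With TNFα the values were 190, 166, 173 and 178 CPM in wild type and 255, 258, 253 and 287 CPM in Notch2 mutant cells, a log2 difference of 0.59 (SE 0.065). The largest value came from the smallest library, and without that library the difference was 0.53. The difference between TNFα and vehicle was 0.19 (95% interval 0.081 to 0.30) in wild type and 0.48 (0.35 to 0.61) in Notch2 mutant cells on the log2 scale. Without replicate 4 of the wild type groups the genotype differences were 0.29 and 0.57, and TNFα against vehicle in wild type cells was 0.20.

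**Figure D1:**
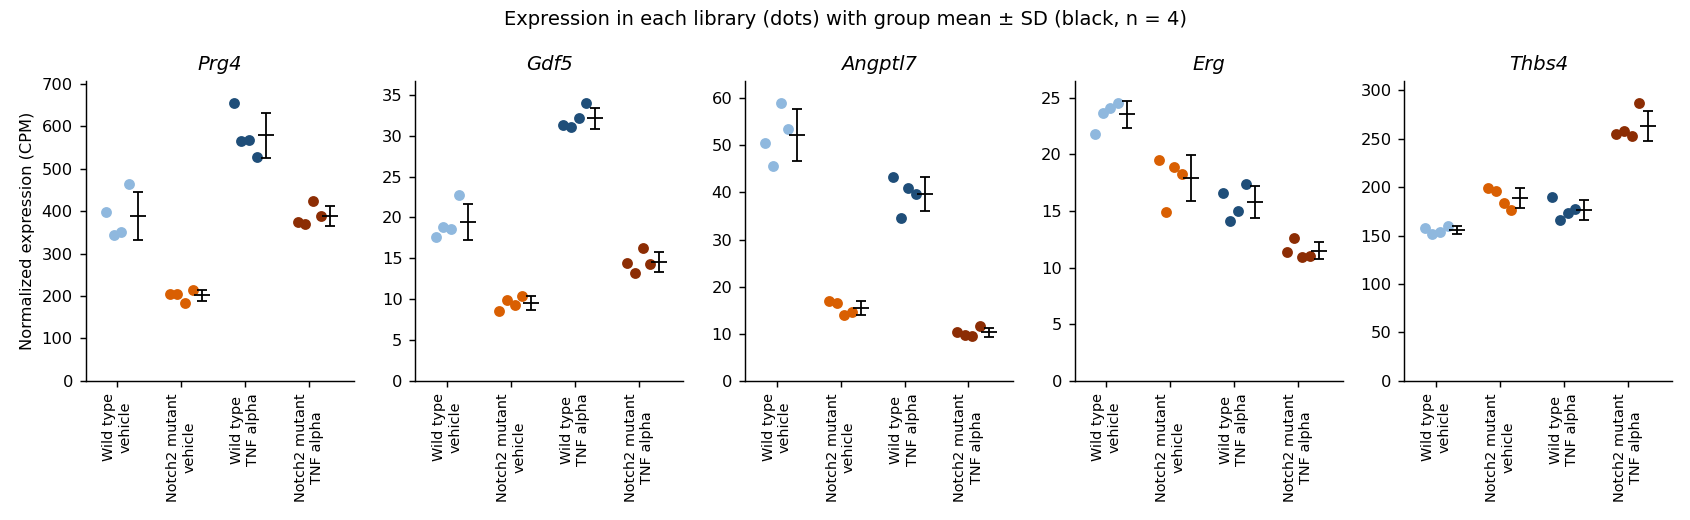
CPM of each of the 5 genes (y axis, from 0, one panel per gene) in the 4 libraries of each group (dots), with the group mean and SD in black. Each gene differs between genotypes without overlap under both treatments, with *Angptl7* between 14.0 and 16.9 CPM in Notch2 mutant and between 45.6 and 58.9 CPM in wild type vehicle libraries, and *Thbs4* alone is higher in mutant cells.

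Of all genes tested, 10.5% passed an adjusted p under 0.05 (edgeR, either direction) between genotypes with vehicle and 9.94% with TNFα, and each of the 5 genes was among them. With vehicle 6.19% were higher and 4.35% lower in mutant cells, and with TNFα 5.63% and 4.31%, with *Thbs4* among the higher and the other 4 genes among the lower. The share was 44.2% for TNFα against vehicle in wild type and 44.5% in Notch2 mutant cells, where each of the 5 genes again passed. In wild type cells 23.3% were higher and 20.9% lower with TNFα and in mutant cells 22.6% and 21.9%, with *Prg4*, *Gdf5* and *Thbs4* among the higher and *Angptl7* and *Erg* among the lower. Groups did not overlap for 16.2% and 14.8% of all genes in the genotype comparisons and for 41.8% and 40.3% in the TNFα comparisons. Because the genes were chosen on these same comparisons, nothing is drawn from their counts. With a fold of at least 2 added, *Gdf5* and *Angptl7* passed between genotypes under both treatments (1.26% and 1.41% of all genes did), and none of the 5 genes reached that fold with TNFα against vehicle (11.8% and 13.9% of all genes did). *Gdf5* with vehicle lay at the edge of that fold and was under it without wild type vehicle replicate 4 (-0.93 on the log2 scale), without Notch2 mutant vehicle replicate 1 (-0.97) and with 1 surrogate variable (-0.95). The 4 comparisons share groups, so that their values for a gene are not independent of each other.

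The difference between the genotype differences with TNFα and with vehicle was 0.37 on the log2 scale for *Prg4* (95% interval 0.13 to 0.61) and 0.30 for *Thbs4* (0.13 to 0.47), in a fit to all 16 libraries. It was -0.13 for *Gdf5* (-0.39 to 0.14), -0.22 for *Angptl7* (-0.48 to 0.042) and -0.049 for *Erg* (-0.32 to 0.23). Thus 2 of the 5 intervals excluded 0, but neither *Prg4* nor *Thbs4* passed the adjusted threshold over all genes with edgeR or with DESeq2, and 0.474% of all genes did with edgeR. For *Prg4* the value was 0.26 without wild type vehicle replicate 4 and 0.23 without replicate 4 of both wild type groups. For *Gdf5* it was -0.23 and -0.19. *Prg4* passed when genes with as little as 1 count were kept, and *Thbs4* passed without Notch2 mutant vehicle replicate 1.

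**Figure D2:**
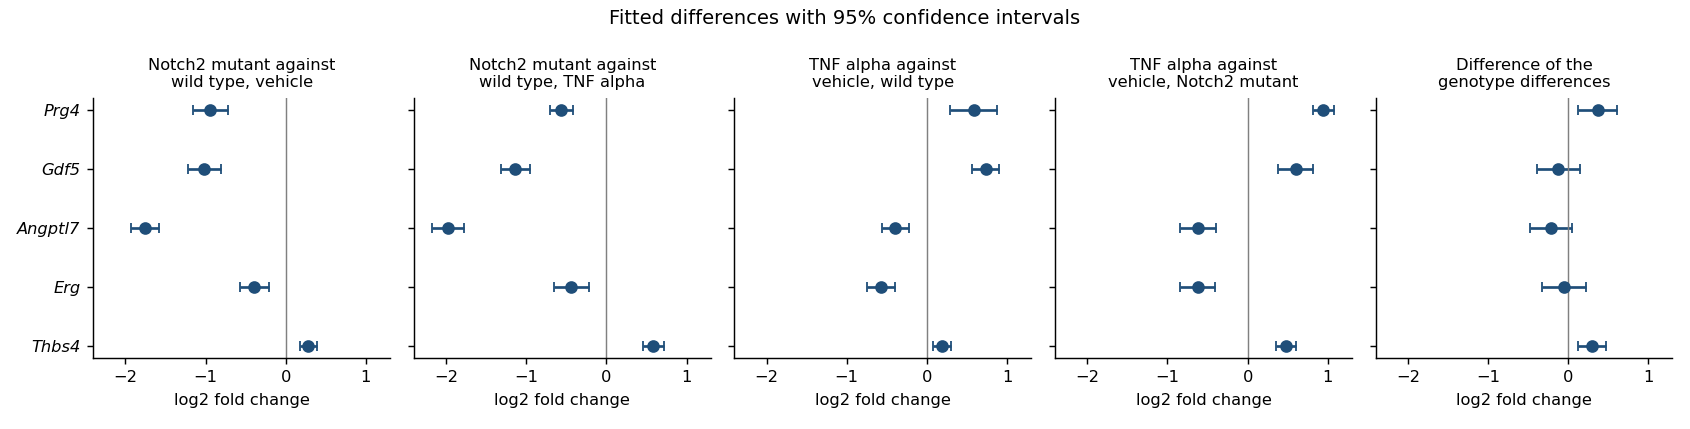
Fitted log2 fold changes (x axis) of the 5 genes with 95% confidence intervals (bars), in the 4 comparisons of 2 groups and, at the right, the difference of the genotype differences with TNFα and with vehicle. *Angptl7* lies farthest from 0 between genotypes (-1.75 and -1.97), and in the right panel only the intervals of *Prg4* and *Thbs4* exclude 0.

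Levels of different genes were compared per kb of exon. In wild type vehicle cells *Prg4* stood first at 88.7 ± 12.7 CPM per kb (SD, n = 4), followed by *Thbs4* at 42.2, *Angptl7* at 24.1, *Gdf5* at 8.38 and *Erg* at 6.77 CPM per kb, and no neighbours in this order overlapped. In Notch2 mutant vehicle cells *Thbs4* at 51.2 ± 2.92 and *Prg4* at 46.1 ± 3.04 CPM per kb overlapped between libraries. *Angptl7* followed at 7.15 CPM per kb, and *Erg* at 5.15 and *Gdf5* at 4.10 CPM per kb overlapped as well. The lead of *Prg4* over *Thbs4* was therefore not seen in untreated mutant cells. With TNFα the wild type order was that of vehicle, from *Prg4* at 132 CPM per kb to *Erg* at 4.54 CPM per kb. In Notch2 mutant cells with TNFα *Prg4* at 88.7 CPM per kb again lay above *Thbs4* at 71.4 CPM per kb, and *Gdf5* at 6.26 CPM per kb lay above *Angptl7* at 4.75 CPM per kb, without overlap. Among the 21190 genes ranked per kb, *Prg4* stood at rank 277 in wild type and 619 in Notch2 mutant vehicle cells, and *Angptl7* at rank 1293 and 4432.

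**Figure D3:**
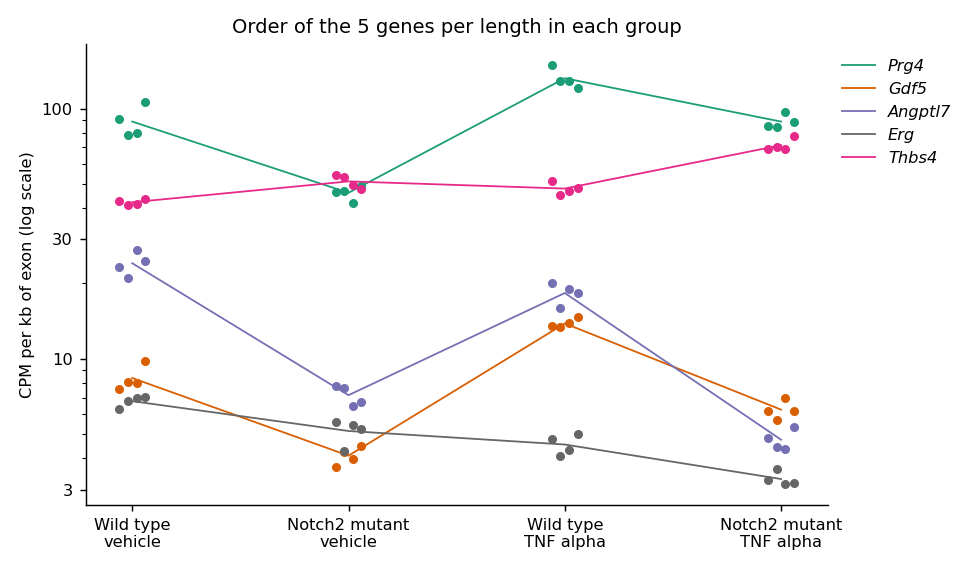
CPM per kb of exon (y axis, log scale) of the 5 genes in each library (dots) of the 4 groups, with lines through the group means. *Prg4* leads in 3 groups and overlaps with *Thbs4* in Notch2 mutant vehicle cells (46.1 against 51.2 CPM per kb), and *Angptl7* lies above *Gdf5* in wild type cells and below it in Notch2 mutant cells with TNFα.

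GDF5 acts through type I and type II BMP receptors and SMAD transcription factors, and it is held back by secreted antagonists such as noggin and gremlin. Of 20 genes of this pathway, 4 were higher and 3 lower in Notch2 mutant vehicle cells (median log2 difference 0.043, against -0.0020 over all genes). With TNFα 6 were lower in mutant cells (median log2 difference -0.35, against -0.012 over all genes). *Grem1*, which encodes the antagonist gremlin 1, was 93.5 ± 15.1 CPM in Notch2 mutant and 191 ± 7.87 CPM in wild type vehicle cells (SD, n = 4), a log2 fold change of -1.02 (edgeR adjusted p = 0.000108). It was lower by a similar size with TNFα (-0.99, adjusted p = 3.69e-11). *Gdf6*, the ligand closest to *Gdf5*, was lower in mutant cells with vehicle (-0.57, adjusted p = 0.00149) and with TNFα (-1.27, adjusted p = 0.00244). *Nog*, the gene for noggin, was lower in mutant cells with vehicle (-0.27, adjusted p = 0.0134), a call that was lost without wild type vehicle replicate 1 or 3 and in the fit to all 16 libraries, and with TNFα (-1.07, adjusted p = 0.00766). *Acvr2a*, a type II receptor, was instead higher in mutant vehicle cells, at 38.2 ± 4.79 against 24.2 ± 1.82 CPM (SD, n = 4; log2 fold change 0.67, adjusted p = 5.45e-06), and its difference with TNFα was 0.20 (adjusted p = 0.173).

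With TNFα 13 of these 20 pathway genes fell in wild type and 13 in Notch2 mutant cells, against 20.9% and 21.9% of all genes. Over the 20 genes the median log2 fold changes were -0.27 and -0.49, against 0.039 and 0.026 over all genes. The count in wild type cells was 13 also without replicate 4 of both wild type groups. *Id1*, which is transcribed in response to BMP signals, went from 99.6 ± 4.17 to 3.98 ± 0.756 CPM (SD, n = 4) in mutant cells (log2 fold change -4.72, adjusted p = 5.78e-24). In wild type cells its log2 fold change was -3.09 (adjusted p = 0.00262), and it lay between -4.02 and -2.87 under the 16 alternative fits. *Gdf6* fell by 1.76 on the log2 scale in wild type (adjusted p = 9.89e-05) and by 2.45 in Notch2 mutant cells (adjusted p = 4.04e-12). The ligand *Gdf5* itself was higher with TNFα in both genotypes, whereas its close relative *Gdf6*, its antagonist *Nog* and the BMP-responsive *Id1* fell.

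Among 16 other interzone and joint patterning genes that were tested, 2 were higher and 3 lower in Notch2 mutant vehicle cells, and 3 were higher and 5 lower with TNFα. *Gdf6* and *Nog* are counted in this list as well. *Barx1*, a homeobox gene of joint-forming mesenchyme, was lower in mutant cells with vehicle (-0.38, adjusted p = 0.000207) and with TNFα (-0.39, adjusted p = 5.86e-05). *Sfrp2*, which encodes a secreted Wnt modulator, was higher, at 710 ± 41.9 against 477 ± 22.3 CPM with vehicle (SD, n = 4; log2 fold change 0.58, adjusted p = 2.45e-08). *Wnt16*, a Wnt ligand of the joint surface, was also higher in mutant cells, by 0.64 with vehicle (adjusted p = 0.00215) and 1.00 with TNFα (adjusted p = 0.000653) on the log2 scale. The list therefore held genes of both directions, and its median was -0.13 with vehicle and -0.025 with TNFα, against -0.0020 and -0.012 over all genes.

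Of 15 other articular surface genes tested between genotypes, 2 were higher and 3 lower in mutant cells with vehicle, and 1 was higher and 2 lower with TNFα. *Cilp2*, a matrix gene of articular cartilage, was at 17.4 ± 2.08 CPM in Notch2 mutant and 49.9 ± 13.3 CPM in wild type vehicle cells (SD, n = 4; log2 fold change -1.51, adjusted p = 0.00344). Its relative *Cilp* was higher in mutant cells with TNFα (0.87, adjusted p = 5.85e-10), and its difference with vehicle was 0.63 (adjusted p = 0.168). The vehicle difference passed in 6 of 16 alternative fits, among them those without wild type vehicle replicate 4. Leaving out that library alone or replicate 4 of both wild type groups is the same fit with vehicle, so that it is counted under both names. *Has2*, which encodes a hyaluronan synthase, was higher in mutant cells with vehicle (0.73, adjusted p = 1.92e-06), and its difference with TNFα was 0.33 (adjusted p = 0.106), which passed the test without wild type TNFα replicate 4. With TNFα 10 genes of this list rose and 3 fell in each genotype, with a median of 0.61 in wild type and 0.69 in mutant cells against 0.039 and 0.026 over all genes. *Cilp2* rose by 2.51 in wild type (adjusted p = 6.91e-05) and 3.50 in Notch2 mutant cells (adjusted p = 2.66e-23) on the log2 scale, and *Has2* fell. In this list, as for *Prg4*, TNFα libraries had the larger number of genes at a higher level.

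Members of the same gene families did not follow *Thbs4*, *Angptl7* or *Erg* uniformly. *Comp*, the thrombospondin of cartilage, was lower in Notch2 mutant cells with vehicle (-0.46, adjusted p = 1.61e-06) and with TNFα (-0.49, adjusted p = 1.11e-06), the direction opposite to that of *Thbs4*. *Thbs2* was higher with vehicle (0.25, adjusted p = 0.000567), and *Thbs1* had log2 differences of 0.027 and -0.25 between genotypes (adjusted p = 0.821 and 0.620). Among the angiopoietins and angiopoietin-like genes, 1 of 6 tested was lower in mutant vehicle cells and 2 were higher and 1 lower with TNFα. *Angptl2* had a log2 difference of 0.015 between genotypes with vehicle (adjusted p = 0.916) and 0.49 with TNFα (adjusted p = 7.91e-07), and the difference between these passed the test (0.47, adjusted p = 0.00106). *Angptl4*, which encodes an inhibitor of lipoprotein lipase, rose by 4.20 with TNFα in mutant cells on the log2 scale (adjusted p = 1.46e-25), whereas *Angptl7* was lower. Of 12 other ETS genes, 1 was lower in mutant vehicle cells, and 1 was higher and 1 lower with TNFα. *Etv5*, an ETS gene that responds to FGF signals, was lower with TNFα (-0.44, adjusted p = 0.000913), and its difference with vehicle was -0.20 (adjusted p = 0.111). The vehicle difference passed in 4 of 16 alternative fits. Among them were those without wild type vehicle replicate 4, which are the same fit counted under both names.

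**Figure D4:**
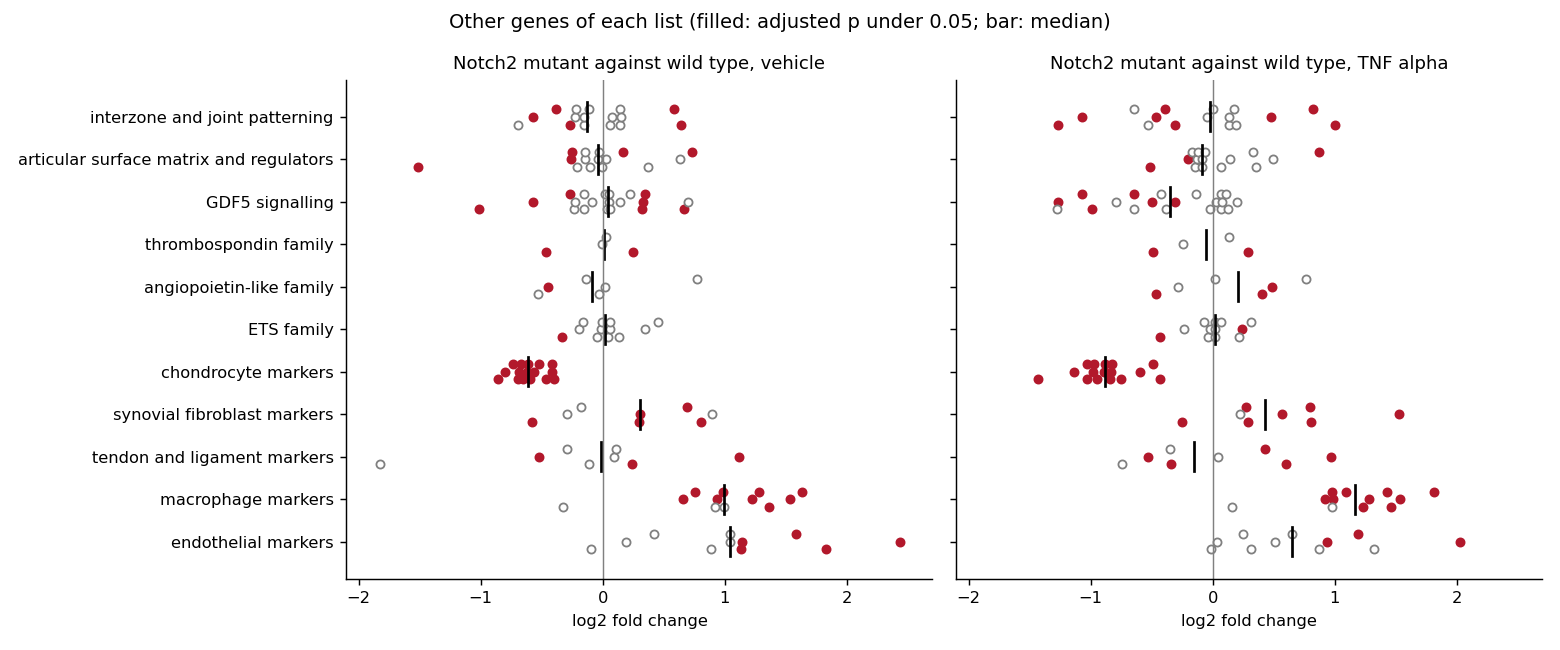
Log2 fold changes between Notch2 mutant and wild type cells (x axis) of the other genes of 11 lists (y axis), with vehicle and with TNFα, filled where the adjusted p was under 0.05 (edgeR), with a bar at the list's median. All 16 chondrocyte markers lie left of 0 (medians -0.62 and -0.89), the joint and family lists hold genes on both sides, and the macrophage medians are 0.99 and 1.16.

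Markers of other cell types moved with genotype as well. All 16 chondrocyte markers, *Comp* among them, were lower in Notch2 mutant cells under both treatments. Their summed level was 32447 to 37666 CPM in Notch2 mutant against 52003 to 55798 CPM in wild type vehicle libraries. In wild type vehicle cells *Col2a1* alone made up most of this sum. Without replicate 4 of both wild type groups 15 of the 16 passed with vehicle and all 16 with TNFα. With TNFα the sum was 20468 to 23337 CPM in Notch2 mutant and 37704 to 44713 CPM in wild type libraries. Of 12 macrophage markers, 9 were higher in mutant cells with vehicle and 10 with TNFα, with a sum of 132 to 153 against 71.4 to 77.9 CPM with vehicle, and the macrophage lysozyme gene *Lyz2* made up 74.2 and 38.9 CPM of it. Of 11 endothelial markers, 5 were higher with vehicle and 3 with TNFα, and none was called lower. The other 6 and 8 were not called, and the median log2 differences over all 11 were 1.04 and 0.65. *Cdh5*, *Cldn5*, *Kdr*, *Pecam1*, *Tek* and *Tie1* were called at a fold of at least 2 in a genotype comparison. The summed level of the 11 markers was 140 to 152 against 137 to 147 CPM with vehicle. Synovial fibroblast markers were higher in 4 of 8 with vehicle and in 6 of 8 with TNFα, and lower in 1 under each treatment. Of 8 tendon and ligament markers, 2 were higher and 1 lower with vehicle and 3 were higher and 2 lower with TNFα. Their median log2 differences were -0.011 and -0.15. With vehicle they ran from -1.82 to 1.12, the highest being *Tnmd*, the tendon gene for tenomodulin (edgeR adjusted p = 1.52e-10). Of 9 skeletal muscle markers, 5 were higher with vehicle and 2 with TNFα, and of 9 hypertrophic markers 2 were higher and 2 lower with vehicle. No defining marker of these lists was at 3 counts or fewer in every library. In bulk RNA fewer cells of a type and less RNA per cell cannot be told apart, and the part of these shifts in the values of *Prg4*, *Gdf5*, *Angptl7*, *Erg* and *Thbs4* was not tested.

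Set against the mean log2 CPM of the 16 chondrocyte markers, a scale that was added after the values were seen, the differences of all 5 genes shifted by the same amount within a comparison. The mean of the markers differed between genotypes by -0.61 with vehicle and -0.89 with TNFα. *Angptl7* remained lower in mutant cells, by -1.13 with vehicle and -1.05 with TNFα, without overlap. *Gdf5* was lower by -0.41 with vehicle without overlap and by -0.25 with TNFα with overlap. *Prg4* was lower by -0.32 with vehicle, and its sign turned with TNFα to 0.31, with overlap. *Erg* turned to 0.21 with vehicle, with overlap, and to 0.43 with TNFα, without. *Thbs4* was 0.89 and 1.46 higher. This scale subtracts the marker mean. A sign can therefore turn only where a gene's difference has the same sign as that of the marker mean and is smaller in size. By the same subtraction *Thbs4*, which differed in the direction opposite to the markers, moved farther from 0.

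**Figure D5:**
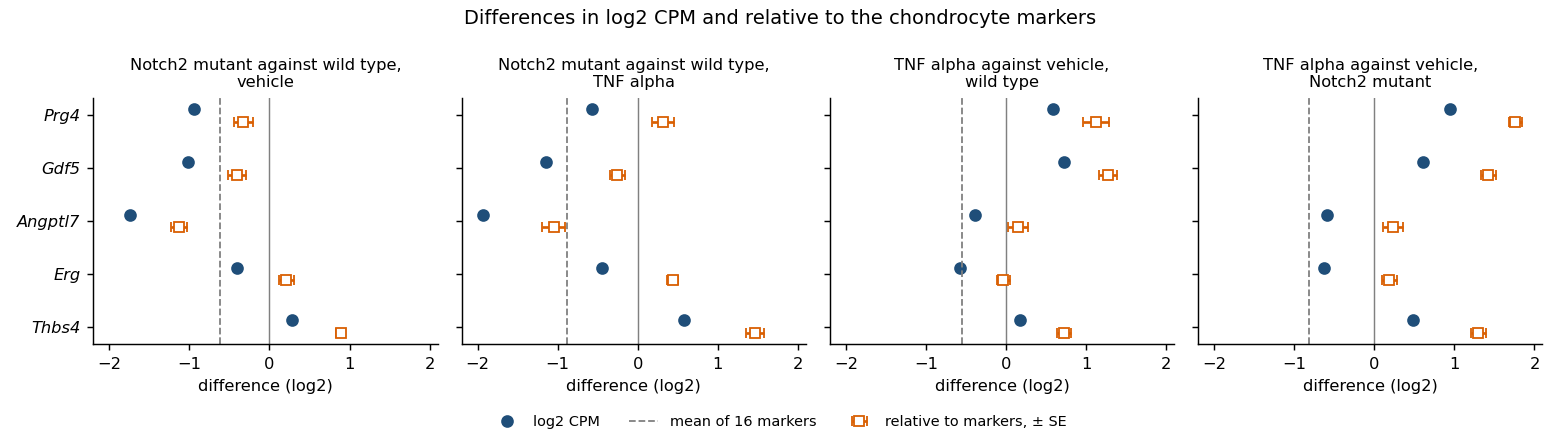
Difference on the log2 scale (x axis) of the 5 genes in 4 comparisons, as log2 CPM (filled circles) and relative to the mean of the 16 chondrocyte markers (open squares, ± SE), with a dashed line at the difference of the marker mean. Relative to the markers *Angptl7* stays at -1.13 and -1.05 between genotypes, *Erg* moves from -0.40 and -0.45 to 0.21 and 0.43, and *Prg4* turns to 0.31 with TNFα.

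The genes whose log2 CPM followed each member most closely over the 16 libraries were ranked by Pearson r among 13431 genes with a mean of at least 1 CPM. The libraries share genotype and treatment groups and a depth each, and most of these correlations come from differences between the 4 groups, so that they are a description. *Angptl7* was followed most closely by *B4galnt2* (r = 0.981), *Eps8l2* (0.972) and *Meltf* (0.967). *B4galnt2*, which encodes a glycosyltransferase, stood at 54.1 CPM in wild type and 35.2 CPM in Notch2 mutant vehicle cells. *Prg4* was followed by *Atp6v0a4* (r = 0.970), *Dcn* (0.968) and *Arhgef3* (0.968), of which *Dcn* encodes the small proteoglycan decorin. *Gdf5* was followed by *Crispld1* (0.974), *Ppp3ca* (0.966) and *Itga10* (0.961), the last of which encodes a collagen-binding integrin subunit of chondrocytes. *Erg* was followed by *Trpv4* (0.976), the gene for a calcium channel, *Adcy7* (0.968) and *Adgra3* (0.966). *Thbs4* was followed by the matrix genes *Col6a1* (0.978), *Bgn* (0.967) and *Adamts2* (0.966). Among the 5 genes themselves, *Prg4* and *Gdf5* ran closest (r = 0.933), and *Thbs4* ran against *Erg* (-0.866) and *Angptl7* (-0.849). After the group means were removed, *Prg4* and *Gdf5* had r = 0.517, and *Angptl7* and *Thbs4* had r = 0.757, a sign opposite to that between the groups.

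*Prg4* overlaps the end of *Tpr*, *Angptl7* lies within *Mtor* and *Gdf5* overlaps *Gm15557*, each on the opposite strand. The libraries were made with a stranded kit, but the strand setting of the counting is not given in the sources used here, and without it reads from overlapping partners cannot be told apart. *Gm15557* held 6 counts in all libraries together, *Mtor* 18991 and *Tpr* 63789.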

How the data were processed

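mRNA was sequenced from 16 libraries of mouse chondrocyte-enriched cells, 4 in each of 4 groups. The authors deposited one file per library with whole-number counts for 55414 genes, without normalization. According to the published methods, paired end reads were trimmed, mapped with HISAT2 and counted with htseq-count on GRCm39, whereas the submitters' processing notes name GRCm38, HISAT2 2.1.0 and SAMtools 1.9, and this difference could not be settled. Fragments assigned to no gene (8.81 to 12.1% of a library) were left out. Symbols and positions were taken from GENCODE M39 (GRCm39), in which 665 identifiers with 0.018% of the counts are absent.

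Counts were analyzed with edgeR 4.0.16 in R 4.3.3. Genes whose counts over the libraries of a comparison summed to under 10 were removed before TMM normalization. Quasi-likelihood models with robust dispersions were then fitted to the 8 libraries of each comparison, without covariates, and to all 16 libraries for the genotype by TNFα interaction. The edgeR pipeline was tested on simulated data. Adjusted p values are Benjamini-Hochberg values over all genes tested, with a threshold of 0.05. CPM values were normalized over the 16 libraries, and log2 CPM for correlations used a prior count of 2. Figures were drawn with matplotlib 3.10.9 from tables written by pandas 2.3.3 under Python 3.11.15.

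The 5 genes, the gene lists and the comparisons were chosen with earlier results of these data known. List genes that are named were drawn from those picked by a rule. It took up to 4 with the smallest adjusted p between genotypes and up to 4 between treatments, plus those called between genotypes at a fold of at least 2. Not every gene picked by the rule is named. The alternatives were DESeq2 1.42.0, RLE normalization, the filterByExpr filter, a minimum of 1 count, a joint fit of the 4 groups, a block for the replicate number, 1 surrogate variable from sva 3.50.0, replicate 4 of both wild type groups left out, a fold of at least 2, and each library left out in turn. Libraries of the same group differed beyond sampling noise (chi-square per degree of freedom 2.14 to 16.0). The depth, 3439726 to 44237300 counts per library, limits the precision of genes with few counts. Intervals give the uncertainty of a fitted difference and rest on the spread between these libraries only.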

Additional observations from a re-analysis of the deposited data

Results flagged for a closer look

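*Thbs4* in Notch2 mutant TNFα replicate 4 stood at 287 CPM, and the other 3 libraries of its group lay between 253 and 258 CPM, so that its gap to the nearest of them took up 0.857 of the range of the group. It was the 1 value that lay this far out among the 20 combinations of 5 genes and 4 groups, and chance alone gives about 1 such value in 20 groups. The library has the lowest depth of the 16, with 3439726 counts on genes and 1039 on *Thbs4*. Without it the genotype difference of *Thbs4* with TNFα was 0.53 on the log2 scale, against 0.59 with it.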

How the results depend on the processing

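The direction and the call of each of the 5 genes in the 4 comparisons of 2 groups held under DESeq2, RLE, both filters, the fit to all 16 libraries, the replicate block, 1 surrogate variable, the removal of replicate 4 of both wild type groups and each library left out in turn. With a fold of at least 2 the calls were 244 genes (2 of the 5) between genotypes with vehicle, 272 (2) with TNFα, 2279 (0) for TNFα in wild type, 2720 (0) in Notch2 mutant cells and 10 for the interaction. *Gdf5* with vehicle fell under that fold without wild type vehicle replicate 4 or Notch2 mutant vehicle replicate 1 and with 1 surrogate variable. The interaction, with 101 calls, gave 174 with DESeq2 and 266 with a minimum of 1 count (1 of the 5 genes, *Prg4*). When single libraries were left out it gave between 51 (without Notch2 mutant TNFα replicate 3) and 156 (without Notch2 mutant vehicle replicate 1), and 0 to 1 of the 5 genes. The cause was not tested. The other comparisons then gave 1578 to 2666 and 1458 to 2075 calls between genotypes, and 7757 to 8549 and 7915 to 9307 calls for TNFα. Relative to the chondrocyte markers, a scale added after the data were seen, the sign turned for *Prg4* between genotypes with TNFα (0.31), for *Erg* between genotypes (0.21 and 0.43) and for TNFα in mutant cells (0.19), and for *Angptl7* with TNFα in wild type (0.15) and mutant cells (0.23). This follows from the lower marker mean (-0.61 and -0.89 between genotypes, -0.54 and -0.82 with TNFα).

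Libraries share replicate numbers across groups, but the deviations of same-numbered libraries correlated between -0.41 and 0.33 over 5000 genes, so that the numbers were not taken as pairs. With the number as a block the calls were 2072 and 1741 between genotypes, 8209 and 8772 for TNFα and 74 for the interaction, and each of the 5 genes kept its call, with *Prg4* at -0.93 between genotypes with vehicle.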
